A study of Homo sapiens with 4 samples.

Results

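NRF2 target genes of glutathione, thioredoxin, iron and NADPH metabolism were examined in HCT116 cells with and without short hairpin RNAs against KSR1. The set was a list of 36 genes known for these roles, whose rule uses no measured value, although earlier results of these data were known when it was drawn up. A gene was measured where the platform annotation gave a probe set its symbol alone, which held for 34 of the 36 and for 71 probe sets. FTH1 and AKR1B1 had no such probe set and were not analysed here. Of the 34, 31 were bright enough to be compared, out of 12468 such genes among 19775 measured.

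The series held 4 arrays, with 1 array per group and no replicates. HCT116 is an established human line from a colorectal carcinoma. The protein KSR1 brings the RAF, MEK and ERK kinases together. The groups were cells with KSR1 shRNA #1 (here hairpin #1), cells with KSR1 shRNA #2 (hairpin #2), cells with a non-targeting shRNA vector (shCTRL), and untransfected cells. Vectors were introduced by lipofection and clones were picked with puromycin, so the 3 shRNA groups share transfection and selection and the untransfected cells had neither. The labels do not say whether a group is 1 clone or a pool of clones.

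Each probe set had 1 deposited intensity per array. Values were compared as log2(intensity + 16), a scale that understates differences of dim genes, and a gene took its brightest probe set. The median intensities of the 4 arrays lay between 50.7 and 52.0. Genes with a mean log2 value under 6.08, the median of all probe sets, were set aside as dim. Of 10 colon epithelial markers 8 were above that value, with EPCAM between 12.94 and 12.99 on the 4 arrays. LGALS4 and CDH17 were dim, and VIL1, between 6.17 and 6.30, was close to the filter. CDX1 had intensities between 144 and 159, and CDX2 between 79.9 and 131. The summed intensity of those markers was 35181 and 45151 with hairpins #1 and #2, against 37710 in shCTRL and 37225 in untransfected cells. Of 8 fibroblast markers 3 were above the filter, COL1A1 being the brightest with intensities between 372 and 433. Of 6 leukocyte markers measured 2 were above it, with PTPRC between 4.98 and 5.06 in log2 units. Summed fibroblast intensities were 592 and 618 with the hairpins, against 643 and 671 in shCTRL and untransfected cells, and leukocyte sums were 217 and 246 against 264 and 229. Actin signal at the 3' end over that at the 5' end, which bears on RNA integrity, was 2.01 and 2.22 with the hairpins, against 2.09 in shCTRL and 2.68 in untransfected cells, and the GAPDH ratio lay between 1.14 and 1.19 on the 4 arrays. The part of these markers and ratios in the results below was not tested.

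The targeted gene, KSR1, had an intensity of 141 with hairpin #1 and 171 with hairpin #2, against 211 in shCTRL and 209 in untransfected cells. Its log2 difference between both hairpin arrays and both others was -0.40 (SE 0.12, limma adjusted p = 0.668). Its 3 other probe sets were below the filter, with intensities between 27.8 and 60.4 and differences of -0.16, 0.02 and -0.04, and with the mean over all 4 the KSR1 difference was -0.15.

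As background, NRF2, encoded by NFE2L2, is a transcription factor that the adaptor KEAP1 binds and presents to a ubiquitin ligase. Oxidants and electrophiles modify KEAP1, NRF2 then accumulates, pairs with a small MAF protein and binds antioxidant response elements. Its targets make and recycle glutathione and thioredoxin, supply NADPH, bind iron, reduce quinones and carbonyls, and conjugate and export drugs.

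Promoters of 4 members are shown, NQO1 because it leads the hairpin difference below and ME1 because shCTRL alone was low in it. GCLM and AIFM2 are shown because their windows hold the core letters given below, and they stand for the glutathione and ubiquinone branches. Binding of NRF2 to these letters was not measured. Each window runs from 250 bases before to 50 after an annotated start, 5' to 3' on the gene's strand, in GRCh38.p14. NQO1 lies at chr16:69726511-69726810, ME1 at chr6:83431002-83431301, GCLM at chr1:93909381-93909680 and AIFM2 at chr10:70132776-70133075, all on the minus strand. Capitals mark the core letters of the antioxidant response element, TGACNNNGC or, on the other strand, GCNNNGTCA.
NQO1 promoter: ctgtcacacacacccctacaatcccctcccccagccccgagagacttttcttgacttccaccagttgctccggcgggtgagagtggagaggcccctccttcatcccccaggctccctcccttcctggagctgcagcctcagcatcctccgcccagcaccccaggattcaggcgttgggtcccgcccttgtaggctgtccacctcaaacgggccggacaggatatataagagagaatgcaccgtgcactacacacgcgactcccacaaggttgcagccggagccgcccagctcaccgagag
ME1 promoter: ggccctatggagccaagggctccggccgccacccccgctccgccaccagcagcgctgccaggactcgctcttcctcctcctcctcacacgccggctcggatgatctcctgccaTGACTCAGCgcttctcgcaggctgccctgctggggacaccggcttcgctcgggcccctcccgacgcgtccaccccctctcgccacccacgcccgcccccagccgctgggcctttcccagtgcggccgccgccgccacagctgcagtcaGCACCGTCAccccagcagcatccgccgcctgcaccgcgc
GCLM promoter: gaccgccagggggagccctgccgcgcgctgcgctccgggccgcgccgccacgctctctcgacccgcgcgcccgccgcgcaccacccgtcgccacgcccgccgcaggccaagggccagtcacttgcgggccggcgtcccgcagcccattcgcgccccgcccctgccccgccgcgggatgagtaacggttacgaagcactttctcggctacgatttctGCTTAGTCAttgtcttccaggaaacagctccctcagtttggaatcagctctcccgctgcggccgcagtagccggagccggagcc
AIFM2 promoter: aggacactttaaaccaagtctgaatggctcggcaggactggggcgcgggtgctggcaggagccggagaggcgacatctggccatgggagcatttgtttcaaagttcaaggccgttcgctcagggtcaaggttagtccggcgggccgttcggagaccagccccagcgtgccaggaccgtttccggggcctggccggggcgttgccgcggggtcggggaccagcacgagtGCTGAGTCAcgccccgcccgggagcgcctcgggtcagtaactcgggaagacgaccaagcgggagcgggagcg

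The core letters were found at -137 and 11 from the ME1 start, at -34 in GCLM and at -22 in AIFM2, where negative positions lie upstream. The ME1 match at -137, TGACTCAGC, and the AIFM2 match, GCTGAGTCA, overlap the AP-1 letters TGANTCA, and the GCLM match, GCTTAGTCA, does not. No match stood in the NQO1 window. Sequence outside the windows was not searched, so an element farther from the start, in NQO1 or another gene, would have been missed. Of the 36 members 27 had a window, 40 windows in all, and 11 of these 40 (27.5%) held the core, against 13.3% of all 35116 windows. By gene these were 10 of 27 members (37.0%), namely AIFM2, CBR1, EPHX1, GCLM, GPX2, KEAP1, ME1, MGST1, PGD and TXNRD1, against 16.1% of all genes. Windows of one gene can overlap, and the members were listed as NRF2 targets, so these shares are a description. The AP-1 letters stood in 3 member windows and in 7.71% of all windows. The hairpin differences of bright members with the core, given below, ran from -0.27 in EPHX1 to 0.33 in ME1.

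The central comparison set both hairpin arrays against both others. No member passed limma, which fits the difference over all 12468 genes. Its error is the spread between the 2 hairpins and between the 2 kinds of control cells. That spread is drawn toward a value pooled over all genes, so an SE is not the gene's own spread alone. Limma called 0 members and 0 genes (0% of all genes, smallest adjusted p 0.318 over all genes and 0.668 over members). At an unadjusted p under 0.05 it held 3 of 31 members (NQO1, UGDH and ABCC3), against 7.07% of all genes. The median difference of the members was 0.09 log2 units, against 0.02 over all genes, and 27 of 31 members had a positive difference, as had 6750 of the 12468 genes. Because no group was repeated, the p-values say nothing of how much cultures of one kind vary. In bulk RNA, fewer cells with a transcript and less of it per cell cannot be told apart.

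In 10 of the 31 members both hairpin arrays lay above both other arrays, which held for 22.5% of all genes. These were NFE2L2, GPX4, SRXN1, PRDX1, PGD, ME1, NQO1, AIFM2, UGDH and ABCC1, with margins from 0.00 to 0.32 log2 units between the nearest arrays. In 2 members, ABCC3 and EPHX1, both lay below, which held for 18.4% of all genes. After quantile normalization these counts were 6 and 3, and after median centring 13 and 2. The matching shares of all genes under these scalings were not worked out. Only NQO1 was separated upward by at least 0.25 log2 units between the nearest arrays, a rule that 2.03% of all genes met, and 0 members were so separated downward, against 1.84% of all genes.

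**Figure D1:**
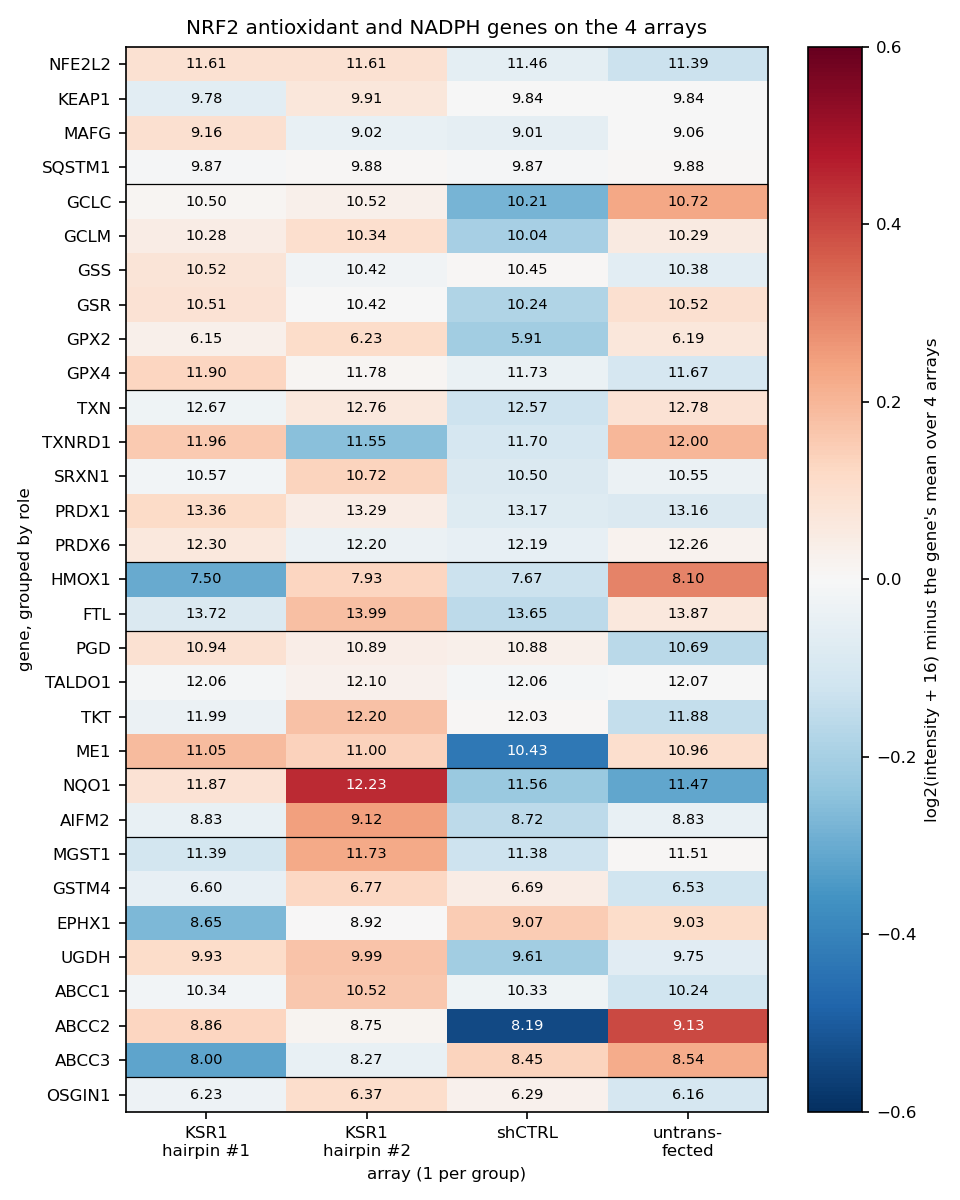
Log2(intensity + 16) of each of the 31 members above the filter (rows, grouped by role) on the KSR1 hairpin #1, hairpin #2, shCTRL and untransfected arrays (columns). Numbers are the values and colour is the distance from the gene's mean over the 4 arrays. NQO1 is highest with hairpin #2 at 12.23, and ABCC2 is lowest in shCTRL at 8.19.

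NQO1, the quinone reductase that is a standard readout of NRF2 activity, differed most among the members. Its intensity was 3738 with hairpin #1 and 4783 with hairpin #2, against 2994 in shCTRL and 2812 in untransfected cells. The hairpin arrays did not overlap the others, and hairpin #2 was the higher of the pair. Hairpins minus others gave 0.54 log2 units (SE 0.15, limma adjusted p = 0.668), or 1.45-fold on that scale, and 177 of 12468 genes had a larger positive one. The 2 other NQO1 probe sets gave 0.51 and 0.54, with intensities of 2960 and 4110 against 2359 and 2517 on one, and 938 and 1272 against 759 and 734 on the other. All 3 therefore placed the arrays on the same sides, with the lowest hairpin value 0.23 to 0.32 log2 units above the highest other value. Of the other reductases, AIFM2, which reduces ubiquinone and protects lipids from peroxidation, had 441 and 539 with hairpins #1 and #2, against 405 in shCTRL and 440 in untransfected cells. Hairpin #1 and untransfected cells thus had nearly the same AIFM2 signal, and a further AIFM2 probe set gave a difference of -0.03 in place of 0.20.

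The carbonyl reductases were dim and were left out of the counts. AKR1C3, an aldo-keto reductase of steroids and prostaglandins, had 46.0 and 30.6 with the hairpins, against 50.9 and 47.6 in shCTRL and untransfected cells. AKR1B10, which reduces retinal and other aldehydes, lay between 23.3 and 27.7 on all arrays, and CBR1, a carbonyl reductase, between 20.4 and 23.2. At these levels signal and background cannot be told apart, and the probe sets of AKR1C3 and AKR1B10 may also bind close relatives.

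NRF2 itself and its controllers had differences of at most 0.18 on their brightest probe sets. NFE2L2 had 3112 and 3104 with the hairpins, against 2799 in shCTRL and 2668 in untransfected cells. Both hairpin arrays lay above both others, by 0.18 log2 units on average (SE 0.09, limma adjusted p = 0.672). A further, dimmer NFE2L2 probe set had 109 and 81.6, against 89.6 and 69.1, so hairpin #2 there lay below shCTRL. KEAP1 lay between 863 and 948 on the 4 arrays, MAFG, a small MAF partner, between 499 and 556, and SQSTM1, the autophagy receptor p62 that binds KEAP1, between 917 and 928. For these 3 the hairpin arrays overlapped the others, with differences of 0.01, 0.05 and 0.00. SQSTM1 had 2 further probe sets above the filter, one between 199 and 283 on the 4 arrays, and one with 165 and 141 against 173 and 192, where both hairpin arrays lay below both controls (-0.23). These are transcript levels, while NRF2 is controlled largely through its protein.

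Of the 6 glutathione genes 4 were lowest in shCTRL (GCLC, GCLM, GSR and GPX2) and 2 in untransfected cells (GSS and GPX4). Of all 12468 genes, 2849 were lowest in shCTRL and 3769 in untransfected cells. Hairpin #1 was highest in 2 of the 6 and hairpin #2 in 2, against 2918 and 3758 of all genes. GCLC, the catalytic subunit of the enzyme that sets the rate of glutathione synthesis, had 1434 and 1451 with the hairpins, against 1171 in shCTRL and 1675 in untransfected cells. Both hairpin arrays thus lay between the controls, and a further GCLC probe set above the filter gave the same order, with 582 and 624 against 459 and 696. GCLM, its modifier subunit, had 1228 and 1280 with the hairpins, against 1040 in shCTRL and 1236 in untransfected cells. Its 3 probe sets all put shCTRL lowest, by 0.25 to 0.55 log2 units against untransfected cells. GSR, which reduces oxidised glutathione with NADPH, had 1442 and 1356, against 1195 in shCTRL and 1454 in untransfected cells. A further GSR probe set had 715 and 626, against 537 and 590, so that there both hairpin arrays lay above both controls, by 0.08 log2 units between the nearest. GPX2, the intestinal glutathione peroxidase, was close to the filter at 54.8 and 59.0, against 44.2 in shCTRL and 56.9 in untransfected cells. GPX4, which reduces lipid peroxides, had 3796 and 3512, against 3378 and 3235, both hairpin arrays being above both others. GSS, which adds glycine in the last step of synthesis, lay between 1321 and 1454. Over the 6 glutathione genes the median was 0.24 for hairpin #1 and 0.24 for hairpin #2 relative to shCTRL, and -0.01 and 0.04 relative to untransfected cells. These comparisons share their control arrays and are not independent of each other.

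Among thioredoxin and peroxiredoxin genes, the abundant peroxide scavenger PRDX1 had 10481 and 9990 with the hairpins, against 9208 in shCTRL and 9138 in untransfected cells. The hairpin arrays did not overlap the others, with a log2 difference of 0.16 (SE 0.09, limma adjusted p = 0.686). SRXN1, which repairs overoxidised peroxiredoxins, had 1504 and 1673, against 1434 and 1487, a margin of 0.02 log2 units between the nearest arrays. TXNRD1, the cytosolic thioredoxin reductase, had 3966 with hairpin #1 and 2974 with hairpin #2, against 3304 and 4087. Hairpin #2 was the lowest and hairpin #1 close to untransfected cells, so the 2 hairpins lay on opposite sides of shCTRL. TXN, thioredoxin itself, had 6486 and 6905, against 6047 and 7041, and PRDX6, a peroxiredoxin that uses glutathione, lay between 4664 and 5010.

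Of the haem and iron genes, HMOX1, the haem oxygenase that releases iron from haem, had 165 with hairpin #1 and 228 with hairpin #2, against 187 in shCTRL and 258 in untransfected cells. Untransfected cells were highest and hairpin #1 lowest, with the others between them, and the difference of -0.17 (SE 0.22, limma adjusted p = 0.835) was smaller than its error. It was 0.04 without the untransfected array and 0.04 without the hairpin #1 array. FTL, the ferritin light chain, was the brightest member, with 13469 and 16217 against 12861 and 14997. Its 2 probe sets are of a kind that can bind related sequences such as pseudogenes, so its values carry that uncertainty.

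Of the NADPH genes, ME1, the cytosolic malic enzyme, had 2104 and 2037 with the hairpins, against 1364 in shCTRL and 1981 in untransfected cells. Its hairpin values were at the level of untransfected cells and shCTRL alone was low. The log2 difference of both hairpins from both others was 0.33 (SE 0.20, limma adjusted p = 0.689), which was 0.06 without the shCTRL array and 0.60 without the untransfected array. A further probe set gave 1203 and 1332 against 815 and 1527, with untransfected cells highest. The pentose phosphate genes differed less. PGD, which makes NADPH in the oxidative branch, had 1954 and 1876, against 1863 and 1631. TKT, of the non-oxidative branch, had 4046 and 4689, against 4157 and 3759, and TALDO1 of the same branch lay between 4246 and 4373. Only hairpin #2 of the TKT arrays was above both controls.

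**Figure D2:**
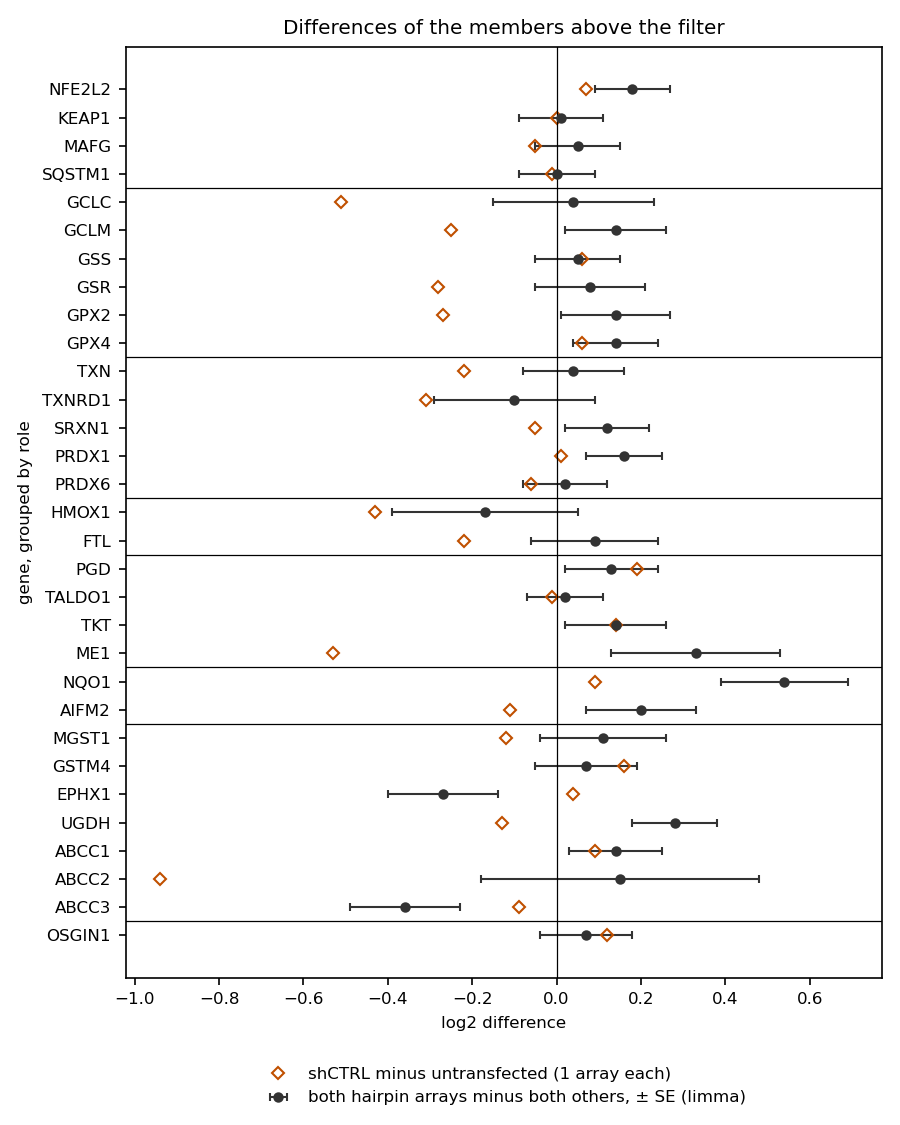
Log2 differences of the 31 members above the filter. Filled circles give both hairpin arrays minus both others with the limma standard error, and open diamonds give shCTRL minus untransfected, 1 array each. NQO1 lies at 0.54 and ABCC3 at -0.36, and the ABCC2 diamond lies at -0.94.

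Conjugation and export genes had differences from -0.36 in ABCC3 to 0.28 in UGDH. ABCC3, an exporter of glucuronides and bile salts, had 240 and 294 with the hairpins, against 334 in shCTRL and 356 in untransfected cells. Both hairpin arrays lay below both others, by 0.36 log2 units on average (SE 0.13, limma adjusted p = 0.668). Of its 5 probe sets above the filter 4 had a negative difference and 1 had 0.21. That one and one of the 4, at -0.35, are of a kind that can bind related sequences. EPHX1, the microsomal epoxide hydrolase, had 385 and 467, against 521 and 507, a difference of -0.27 (SE 0.13, limma adjusted p = 0.672). In both genes hairpin #1 had the lowest signal. UGDH, which makes the UDP-glucuronate used in glucuronidation, was higher instead, with 958 and 1000 against 766 and 842, a difference of 0.28 (SE 0.10, limma adjusted p = 0.668).

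ABCC2, the apical exporter of glutathione and glucuronide conjugates, varied most among all members. Its intensity was 450 and 415 with the hairpins, against 275 in shCTRL and 544 in untransfected cells. Both hairpin arrays lay between the controls, and the difference of 0.15 (SE 0.33, limma adjusted p = 0.915) was -0.32 without the shCTRL array and 0.62 without the untransfected array. ABCC1, a broad exporter of conjugates, had 1281 and 1451, against 1271 and 1197. The microsomal glutathione transferase MGST1 had 2667 and 3384, against 2658 and 2894, so that hairpin #2 alone was above the controls. GSTM4, a cytosolic glutathione transferase, lay between 76.6 and 93.2. A further GSTM4 probe set, close to the filter, had 41 with hairpin #1 and 71 with hairpin #2, against 69.9 and 47.1. There the hairpins lay 0.61 log2 units apart. OSGIN1, an oxidative stress-induced growth inhibitor, lay between 55.6 and 66.4. The MGST1 and GSTM4 probe sets used can also bind related sequences.

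**Figure D3:**
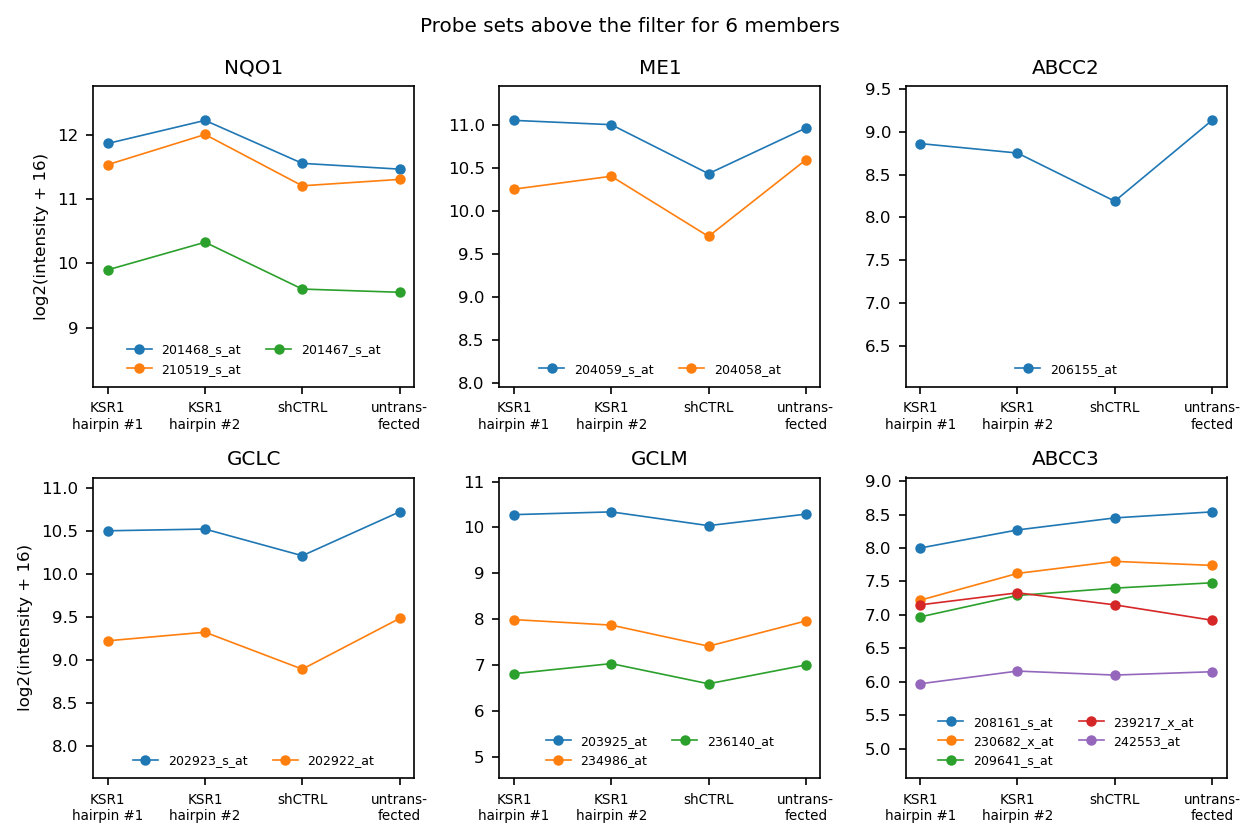
Log2(intensity + 16) of every probe set above the filter for NQO1, ME1, ABCC2, GCLC, GCLM and ABCC3 on the 4 arrays, each line joining the values of 1 probe set. The 3 NQO1 probe sets share one order of hairpins over controls except between the controls, and the ME1, GCLC and GCLM probe sets are all lowest in shCTRL.

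Where a member had several probe sets above the filter, their directions were compared. Of 19 such members, 14 had a positive hairpin difference on every one, 0 had a negative one on every one and 5 were mixed. The mixed members were ABCC3, AIFM2, GSTM4, PGD and SQSTM1. Positive differences counted here were as small as 0.02, in PRDX6. For shCTRL minus untransfected, 8 of the 19 were lower on every probe set, namely FTL, GCLC, GCLM, GSR, ME1, MGST1, SQSTM1 and TXN. Another 4 were higher on every one, and 7 were mixed. The matching shares over all genes were not worked out, so these counts cannot be read as particular to the members. Probe sets of a gene read the same arrays, so their agreement is no replication.

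Single pairs of arrays were then compared, counting members that differed by at least 1.5-fold. These counts have no replicate check. Against shCTRL, hairpin #1 had 2 members higher, ABCC2 (0.68) and ME1 (0.62), where 0.914% of all genes were, and 0 lower, where 1.83% were. Hairpin #2 had NQO1 higher than shCTRL (0.67), where 3.56% of all genes were, and 0 members lower, where 3.22% were. ME1 and ABCC2 with hairpin #2, at 0.57 and 0.56, stood just under the size rule, so the hairpins were close to each other in these genes.

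The same counts were made against untransfected cells. Hairpin #1 had 0 members higher (1.98% of all genes) and 1 lower, HMOX1 at -0.60 (2.11%). Hairpin #2 had NQO1 higher at 0.76 (4.48%) and 0 lower (2.94%). NQO1 was the one member past the rule against both controls, and only with hairpin #2. With hairpin #1 it was 0.32 above shCTRL and 0.41 above untransfected cells. Between the hairpins 0 members passed in either direction, hairpin #2 over hairpin #1, where 3.38% of all genes were higher and 2.24% lower. The widest of these differences were HMOX1 at 0.43 and TXNRD1 at -0.41.

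The control arrays also differed from each other. In shCTRL relative to untransfected cells, 1 member was at least 1.5-fold lower, ABCC2 at -0.94 (1.55% of all genes), and 0 were higher (2.14%). ME1 at -0.53, GCLC at -0.51 and HMOX1 at -0.43 came next. The member median was -0.05, against 0.02 over all genes. Of the 4 arrays shCTRL was lowest in 15 of 31 members (48.4%), against 22.9% of all genes, and in 4 of the 6 glutathione genes. Hairpin #2 had the highest value for 15 members, against 30.1% of all genes. Accordingly the member median relative to shCTRL was 0.10 with hairpin #1 and 0.17 with hairpin #2, and relative to untransfected cells 0.00 and 0.05. Vector, selection, clone and culture differ together between shCTRL and untransfected cells and cannot be told apart.

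**Figure D4:**
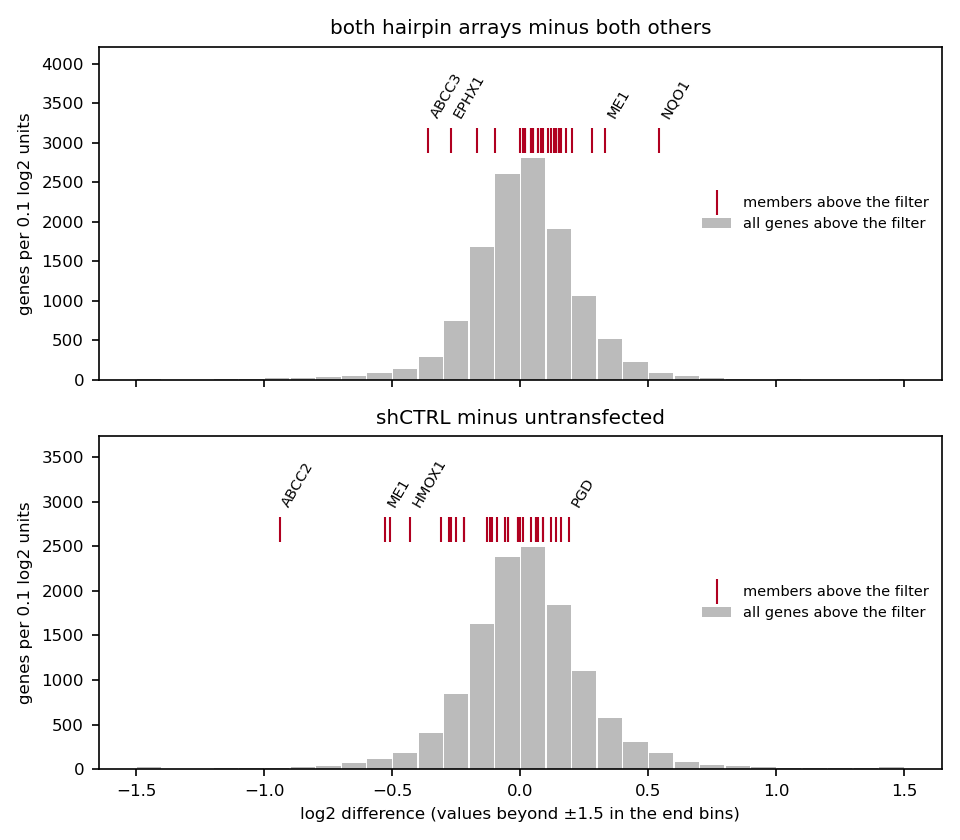
Members (red ticks) against the distribution of all 12468 genes above the filter (grey bars, genes per bin of 0.1 log2 units) for both hairpin arrays minus both others (top) and shCTRL minus untransfected (bottom). NQO1 at 0.54 is the rightmost member above, and ABCC2 at -0.94 the leftmost below.

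Pathway genes that are not members were taken from 7 further lists of 94 genes, of which 78 were above the filter. Limma called 0 of them in either direction, with 8 at an unadjusted p under 0.05, where 7.07% of all genes were. Both hairpin arrays lay above both others in 26 of the 78, against 22.5% of all genes, and below in 8, against 18.4%, and these shares of all genes are also those to set beside the counts for single lists that follow. The median difference was 0.08, against 0.02 over all genes. The widest difference was that of SLC7A11, the cystine importer that feeds glutathione synthesis and is itself an NRF2 and ATF4 target. It had 628 and 774 with the hairpins, against 424 in shCTRL and 292 in untransfected cells (0.95, SE 0.21, limma adjusted p = 0.668). CHAC1, which breaks down glutathione and is an ATF4 target, had 221 and 150, against 96.5 and 90.1. In the glutathione and cystine list 8 of 14 genes were above both controls with both hairpins and 1 was below.

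Other NADPH sources pointed opposite ways. IDH1, the cytosolic NADP-dependent isocitrate dehydrogenase, had 2962 with hairpin #1 and 5192 with hairpin #2, against 2903 and 2313, so hairpin #2 alone was far from shCTRL. IDH2, its mitochondrial counterpart, had 379 and 429, against 606 and 577, a difference of -0.54 (SE 0.11, limma adjusted p = 0.668). That list had 3 of 10 genes above both controls and 1 below.

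Among regulators, BACH1, a repressor that competes with NRF2 for its elements, had 289 and 242 with the hairpins, against 343 and 338, a difference of -0.35 (SE 0.12, limma adjusted p = 0.668). The coactivator CREBBP had 916 and 933, against 723 and 767. For both genes the hairpin arrays did not overlap the others, and 3 of 11 regulators in all were above both controls and 2 below. Of the iron genes, TFRC, the transferrin receptor, had 7593 and 7003, against 4299 and 6096, and FECH, the last enzyme of haem synthesis, had 510 and 696, against 467 and 449. In that list 5 of 10 genes were above both controls and 1, BACH1, which it also holds, was below.

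MGST2, a microsomal glutathione transferase, had 345 and 461, against 350 and 246, and ALDH3A2, a fatty aldehyde dehydrogenase, had 1264 and 1259, against 1169 and 776. Untransfected cells alone were low in ALDH3A2, and 3 of 19 conjugation, reduction and export genes were above both controls and 2 below. SESN1, a p53-induced sestrin, had 316 and 272, against 445 and 329, and PRDX4, the peroxiredoxin of the endoplasmic reticulum, 4323 and 4181, against 4632 and 4987. In the further thioredoxin list 1 of 10 genes was above both controls and 2 were below. The peroxide enzyme catalase (CAT) had 1100 and 1332, against 1043 and 1176, and PARK7, a redox-sensitive chaperone, 9326 and 8644, against 8424 and 8140, with 3 of 5 superoxide and peroxide genes above both controls and 0 below.

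**Figure D5:**
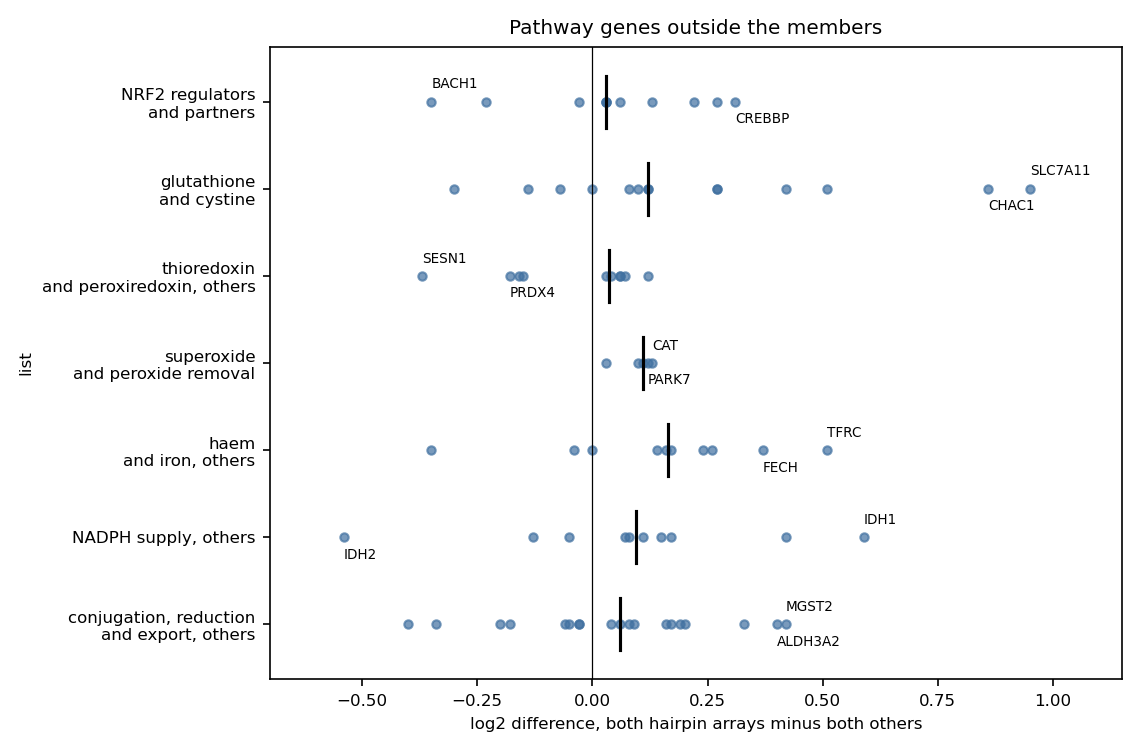
Log2 difference of both hairpin arrays minus both others for the pathway genes outside the members (points), by list, with list medians as black bars and the 2 widest genes of each list named. SLC7A11 lies at 0.95 and IDH2 at -0.54.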

How the data were processed

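Messenger RNA of HCT116 cells was measured on 4 Affymetrix arrays of 54675 probe sets. The authors deposited 1 linear intensity per probe set and array (4.72 to 26251). How they corrected background, summarised probes and normalized is not given in the sources used. No column was left unused. Arrays have no sequencing depth, and their number limits the precision.

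Values were used as log2(intensity + 16) without further scaling. Probe sets with 1 symbol in the platform annotation (41097; 1801 had several, 11777 none) were named, and 41043 matched a RefSeq gene of GRCh38.p14 by identifier, with 0 symbols updated. A gene took its brightest probe set, and genes with a mean of at least 6.08 were kept. limma 3.58.1 in R 4.3.3 (lmFit, eBayes, Benjamini-Hochberg over 12468 genes, adjusted p under 0.05) set the 2 hairpin arrays against the 2 others on 2 residual degrees of freedom, after a test on simulated data. Single arrays were compared by a 1.5-fold rule.

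Members and lists were chosen with earlier results of these data known. The rule for named members took a gap of 0.25 log2 units between hairpin and other arrays, or 1.5-fold in any pair of arrays, which gave NQO1, ME1, ABCC2 and HMOX1; other members are given by role, and up to 2 genes of each further list by size of difference. Other members and probe sets singled out were chosen after their values were seen. Alternatives covered the filter, probe sets, scaling, pseudocount, fold rule and leaving out each array. Promoter windows came from RefSeq (GRCh38.p14).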

Additional observations from a re-analysis of the deposited data

How the results depend on the processing

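Limma called 0 members and 0 genes in the main setting and under each of 11 alternatives (no filter, a stricter filter, the mean over probe sets, quantile normalization, median centring, pseudocounts of 1 and 64, and each array left out in turn). Members above both controls with both hairpins numbered 10, but 6 after quantile normalization, 8 with the mean over probe sets and 13 after median centring. They numbered 13 to 21 with 1 array left out, where fewer arrays have to be separated. Members below both controls numbered 2, but 3 without the filter, with the mean over probe sets or after quantile normalization, and 2 to 8 with 1 array left out. The shares of all genes beside these counts were worked out only in the main setting. The changed counts alone are therefore no result about the members. The member median of 0.09 was 0.03 to 0.11 with 1 array left out, 0.03 being without shCTRL, and 0.08 to 0.11 under the other settings. The quantile and median scalings put the median of all genes at -0.01 and 0.04, against 0.02. Members past 1.5-fold numbered 2 for hairpin #1 against shCTRL, and 1 with the mean over probe sets or quantile normalization. For hairpin #2 against shCTRL they numbered 1, and 2 after median centring or with a pseudocount of 1. At 2-fold the counts were 0 for hairpin #1 against shCTRL, 0 for hairpin #2 against shCTRL and 0 for shCTRL against untransfected cells. The NQO1 difference stayed between 0.36 and 0.72 and the ME1 difference between 0.06 and 0.60 under all 11 alternatives, and the KSR1 difference of -0.40 between -0.52 and -0.15 under the 10 that kept the gene. With 1 array left out, ABCC2 ranged from -0.32 (without shCTRL) to 0.62 (without untransfected cells). HMOX1 ranged from -0.39 (without shCTRL, and likewise without hairpin #2) to 0.04 (without untransfected cells, and likewise without hairpin #1). Other causes were not tested. No paired analysis was possible because each group holds 1 array. A dim signal near the filter limits GPX2, GSTM4 and OSGIN1.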
